A study of Mus musculus with 2 samples.

Results

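Intraflagellar transport (IFT) genes encode the subunits of the trains that carry cargo along the microtubules of cilia. They were the rows of the authors' FPKM table whose symbol is Ift followed by a number, 8 of 4898 rows. The genes were Ift20, Ift27, Ift46, Ift57, Ift80, Ift88 and Ift172 of the IFT-B complex, and Ift122 of the IFT-A complex. The family was chosen by how many of its genes the authors list in the table, so that share is a description and carries no test.

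The cells were DC1940, a CD8α+ dendritic cell line from C57BL/6 mice, labelled wild type. They had been transduced with an empty vector and activated with pIC, an agonist of TLR3 that mimics viral double-stranded RNA. Poly(A) RNA was sequenced in 1 group of 2 libraries from this single line, and nothing in the labels says that they came from separate cultures. For each gene the authors give a single FPKM value for the whole group (fragments per kilobase of transcript and per 1000000 mapped fragments), so no value has an SD, the depth is unknown, and no difference between genes can be set against replicate error. Its sheet is named for genes that differ between unstimulated and pIC-treated cells. The direction and size of those differences are not analysed here, and every value is a level after pIC. The duration of activation is not given for these libraries. Of 13 markers fixed for CD8α+ dendritic cells, 9 had a row, against 21.1% of all protein-coding genes in RefSeq. Their values ran from 387 FPKM for the chemokine receptor gene Xcr1, with Cd8a at 292 and the uptake receptor gene Ly75 at 106, to 5.62 for the growth factor receptor gene Flt3, below the median of the table. The other markers, Batf3, Irf8, Itgae and Id2, had no row among those used here, so their levels are unknown.

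IFT trains are built from a pair of complexes. IFT-B links to the kinesin-2 motor and moves cargo outward to the ciliary tip, and IFT-A links to the dynein-2 motor for the return and helps membrane proteins to enter the cilium. IFT-B is divided into a core, IFT-B1, and a peripheral part, IFT-B2. Leukocytes as a class mostly lack a primary cilium. In T cells, which have none, IFT20 and several other IFT-B proteins are known to bring receptor-carrying vesicles to the contact with an antigen-presenting cell.

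Sequences around the starts of the genes are shown because promoters of ciliary genes in many animals carry the X-box, the site of the RFX transcription factors, a feature that the choice of rows did not use. RefSeq promoter windows on GRCm38.p6, each with 250 bases before and 50 after the annotated start, were matched for 6 of the 8 genes (not Ift80 or Ift122). The arm of the X-box, GTTGCC, stood on either strand in 4 of these 6 windows, those of Ift27, Ift57, Ift88 and Ift172, against 12.5% of all 32851 windows. It stood in 5 of the 14 windows of IFT subunits that have no row in the table. The 26 bases around a match in each gene are given 5′ to 3′ on the strand where the arm reads GTTGCC, with the arm in capitals. The places were chr15:78174075-78174100 (minus strand) for Ift27, chr14:57424082-57424107 (minus strand, opposite to the gene) for Ift88 and chr5:31291099-31291124 (minus strand) for Ift172. That of Ift57 was chr16:49699197-49699222 (plus strand).
Ift27: gttgatgatgGTTGCCaggagcctgt
Ift57: ggcgggtctgGTTGCCgtggtgaccg
Ift88: acgcccagccGTTGCCaggcgcgact
Ift172: tcgcactcacGTTGCCtgtgcgtcag
In Ift57 this arm began at position -87 from the annotated start, in Ift27 at -9, in Ift172 at 1 and in Ift88 at 22. The interval of the Ift27 row, on the minus strand, reaches chr15:78174108, so by that interval its arm lay inside the gene. The matches of Ift27, Ift172 and Ift88 thus lay close to the start, and that of Ift57 farther upstream.

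Ift57 was the only gene among the 6 windows in which a whole X-box was found. The motif was searched on both strands as GTNNCC and GNNAC with 3 bases of any kind between them, and stood in 4.62% of all windows. The GTTGCC arm printed for Ift57 is the first 6 bases of a match at -87. The stretch of its promoter outside annotated exons, chr16:49699044-49699232 on the plus strand, is printed with this match in capitals.
Ift57 promoter: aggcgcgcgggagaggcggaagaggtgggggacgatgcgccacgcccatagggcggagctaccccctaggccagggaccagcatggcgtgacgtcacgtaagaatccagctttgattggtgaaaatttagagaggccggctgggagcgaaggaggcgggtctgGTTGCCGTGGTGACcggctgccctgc
Of the 14 windows of subunits with no row, 4 held the whole motif (Ift22, Ttc26, Ttc30a2 and Wdr19). The letters of an interferon response element, searched as GAAA, 2 bases of any kind and GAAA, stood in 0 of the 6 windows and in 3.44% of all windows. The letters of an NF-kB site, searched as GGGA, 4 bases of any kind and CC, stood in 0 of the 6, in 4 of the 14 windows of subunits with no row (Hspb11, Ift52, Ttc26 and Ttc30a1), in 26.8% of the windows of listed genes and in 20.7% of all. The interferon letters stood in 0 of those 14 and in 3.86% of the windows of listed genes. Both searches covered both strands. A match in these windows is a description of letters, and no binding was measured. With shares this low over all windows, a count of 0 in 6 cannot show that either site is rarer in IFT genes.

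All 8 IFT genes stood below the median of the table, 9.68 FPKM, and above 1 FPKM. Their median was 3.78 FPKM. The highest, Ift20, had 47.1% of all rows below it and the lowest, Ift172, had 18.5%. The range that the 8 genes span holds 28.6% of the rows, while 14.1% of rows stood under 1 FPKM. In bulk RNA, a transcript present in fewer cells and less transcript per cell cannot be told apart.

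**Figure D1:**
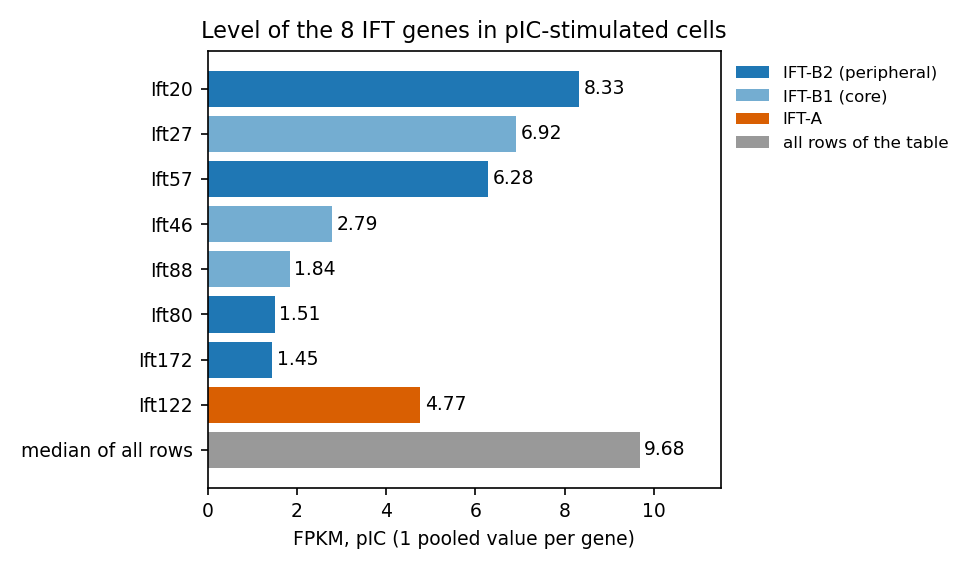
FPKM of the 8 IFT genes in pIC-activated cells (x axis, 1 pooled value per gene, no error bars), coloured by sub-complex. The 7 IFT-B genes are plotted first, followed by Ift122 of IFT-A and the median of all rows. Each IFT gene lies below the median of 9.68 FPKM, from 8.33 for Ift20 to 1.45 for Ift172.

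**Figure D2:**
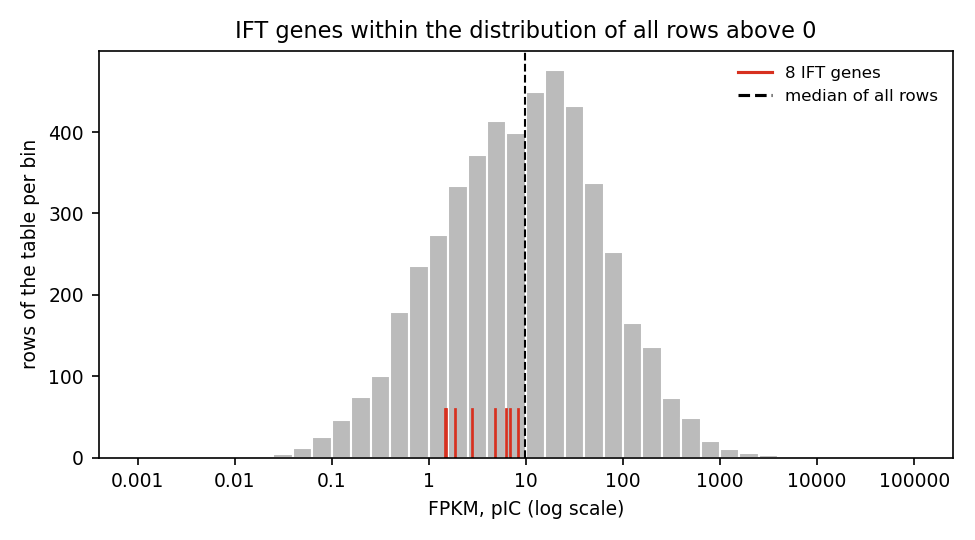
Number of table rows (y axis) by FPKM (x axis, log scale), with red lines at the 8 IFT genes and a dashed line at the median of all rows. The IFT genes lie between 1.45 and 8.33 FPKM, all left of the median.

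Among the IFT-B2 genes, Ift20 had 8.33 FPKM, the highest value of the family. IFT20, besides its place in the train, is known to sit at the Golgi, where the golgin GMAP210 holds it. Its row (mm10, chr11:78536436-78541473, plus strand) covers a gene of 6 exons whose matched transcript of 1141 nt encodes 132 amino acids. The gene of that golgin, Trip11, had no row. Ift57, which encodes a coiled-coil subunit of IFT-B2, had 6.28 FPKM (chr16:49699294-49765126, plus strand, 11 exons, 429 amino acids). Ift80, mutated in human skeletal ciliopathies, had 1.51 FPKM (chr3:68892499-69004570, minus strand, 20 exons, 777 amino acids). Ift172, the largest IFT-B protein, had 1.45 FPKM (chr5:31253279-31291114, minus strand, 48 exons, 1749 amino acids). The 4 IFT-B2 genes thus took both ends of the family's range, with Ift20 and Ift57 among the 3 highest and Ift80 and Ift172 the 2 lowest. The ratio of highest to lowest was 5.73. Cluap1 and Traf3ip1, the other subunits of IFT-B2, had no row.

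Among the IFT-B1 genes, Ift27 led at 6.92 FPKM (chr15:78159463-78174108, minus strand, 7 exons, 186 amino acids). IFT27 is a small Rab-like GTPase that pairs with IFT25 and helps the BBSome, a membrane-protein coat, to leave the cilium. The gene of its partner, Hspb11, had no row. Ift46 had 2.79 FPKM (chr9:44773009-44792714, plus strand, 12 exons, 301 amino acids). IFT46 helps to hold the core together and to bring in outer dynein arms, as known from the alga Chlamydomonas. Ift88, whose mutation causes polycystic kidneys in the orpk mouse, had 1.84 FPKM (chr14:57424071-57517936, plus strand, 26 exons, 825 amino acids). Of the 12 IFT-B1 genes, 3 had a row. Those without included Ift52, Ift74 and Ift81, which encode partners in the core.

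IFT-A was represented by Ift122 alone, at 4.77 FPKM (chr6:115853528-115926699, plus strand, 29 exons in each of 2 matched transcripts, 1182 and 1183 amino acids). IFT122 is a scaffold of the IFT-A core and takes part in the ciliary entry of receptors. The other 5 of 6 subunits of IFT-A (Ift43, Ift140, Wdr35, Wdr19 and Ttc21b) had no row. The listed share was thus 16.7%, against 21.1% of all protein-coding genes. The 7 IFT-B genes had a median of 2.79 FPKM and Ift122 had 4.77, a difference of -0.61 between medians on the log2(FPKM + 1) scale. Of the 7 IFT-B genes, 3 stood above Ift122 and 4 below it. With 1 IFT-A gene inside the range of IFT-B and no replicate values, the complexes cannot be ranked.

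In the order of levels, neighbouring genes differed by factors of 1.20 (Ift20 over Ift27), 1.10 (Ift27 over Ift57), 1.32 (Ift57 over Ift122), 1.71 (Ift122 over Ift46), 1.51 (Ift46 over Ift88), 1.22 (Ift88 over Ift80) and 1.04 (Ift80 over Ift172). The widest step separates Ift20, Ift27, Ift57 and Ift122 from the other 4 genes. No spread between libraries was given, so none of these neighbours can be said to differ. With 1 value per gene there was also no pattern across samples against which other genes could be matched.

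FPKM divides by transcript length, and the transcript of Ift172 was 4.74 times as long as that of Ift20. The transcripts of Ift20 and Ift27 were 1141 and 1013 nt long and those of the other 6 genes 2601 to 5403 nt. Multiplied by the annotated length, the levels imply 9.50 fragments per 1000000 mapped for Ift20, 7.01 for Ift27 and 16.3 for Ift57. The same product is 19.5 for Ift122, 11.6 for Ift46, 5.69 for Ift88, 6.13 for Ift80 and 7.86 for Ift172. By fragments Ift122 takes place 1 and Ift57 place 2, while Ift20 takes place 4 and Ift27 place 6, and the ratio of highest to lowest is 3.43 instead of 5.73. These products use the annotated length of the matched transcript rather than the effective length of Cufflinks, averaged over both transcripts for Ift122, so they are approximate.

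**Figure D3:**
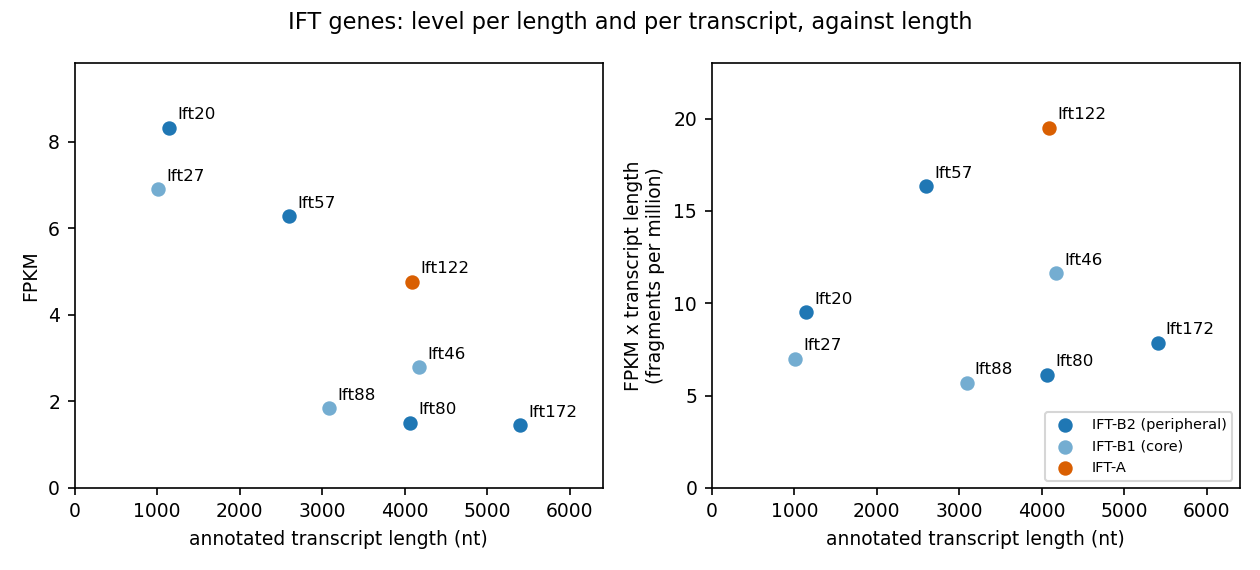
FPKM (left, y axis) and FPKM multiplied by transcript length in kilobases (right, y axis, fragments per 1000000 mapped) against annotated transcript length in nucleotides (x axis) for the 8 IFT genes, coloured by sub-complex. The 2 short genes Ift20 and Ift27 are highest in FPKM, whereas Ift122 and Ift57 are highest in fragments, at 19.5 and 16.3.

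RefSeq has 14 protein-coding genes with an Ift number as symbol, of which 8 (57.1%) had a row, against that 21.1% of all 21900 protein-coding genes. Of the 10 IFT subunits with another symbol, such as Wdr35 and Cluap1, 0 had a row, and none of their accessions stood in the row of another gene. Over all 24 subunits the share was 33.3%. By complex it was 7 of 18 for IFT-B (38.9%) and 1 of 6 for IFT-A (16.7%). Because the rows were chosen for this share, nothing is read from it. A gene without a row is not shown to be absent or unchanged, and 1 row of the table was not used here.

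The partners of the trains were listed in part, at levels that ranged more widely than those of the IFT genes. Among 5 kinesin-2 genes, the motor subunit gene Kif3b had 10.2 FPKM and the others had no row. Of 11 genes for dynein-2 subunits and light chains, 4 had a row, against 21.1% of all protein-coding genes. The light chain gene Dynll2 had 156 FPKM, the light chain gene Tctex1d2 5.97, and Dync2h1, the dynein-2 heavy chain, 0.741. Dynlt1b, a light chain gene with near-identical copies, so that its value is uncertain, was the lowest at 0.210. DYNLL2 also serves other dynein and myosin motors, while the heavy chain is particular to dynein-2. Of 10 genes of the BBSome and its regulators, 4 had a row and all were low, with a median of 2.08 FPKM. Lztfl1, which restrains BBSome entry into cilia, had 4.39 FPKM, and the subunit genes Bbs4 and Bbs2 had 2.81 and 1.36.

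Genes of the transition zone, the gate at the base of the cilium, resembled the IFT genes in level. Of 15, 7 had a row (46.7%), with a median of 2.38 FPKM. Over all protein-coding genes, the background for each list named here, 21.1% had a row, and no share was tested. Tmem67 had 7.57 FPKM, Mks1 5.54 and Ahi1 4.71, and each encodes a part of the gate. Of the 9 genes of basal body appendages and cilium initiation, Cep83, an appendage protein gene, had 28.7 FPKM and the rest had no row. Of 10 ciliary GTPases and adaptors, 4 had a row. Rab10 had 282 FPKM, Rab8a 249.8 and Rab29 31.1, and all of them also act in vesicle traffic outside cilia. Arl13b, a GTPase of the ciliary membrane, had 4.33 FPKM, within the range of the IFT genes. The Rab genes thus stood above the median of the table and Arl13b below it.

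Hedgehog signalling, which depends on the cilium in mammals, had 2 of 10 genes in the table, a share near the 21.1% of all protein-coding genes, and both stood under 1 FPKM. The kinesin gene Kif7 had 0.744 FPKM and the receptor gene Smo 0.0653. The targets Gli1 and Ptch1 had no row. Of 19 genes of motile cilia and multiciliated cells, 1 had a row, Ccno at 1.50 FPKM. The defining genes Foxj1, Mcidas and Gmnc had no row, so their levels are unknown.

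**Figure D4:**
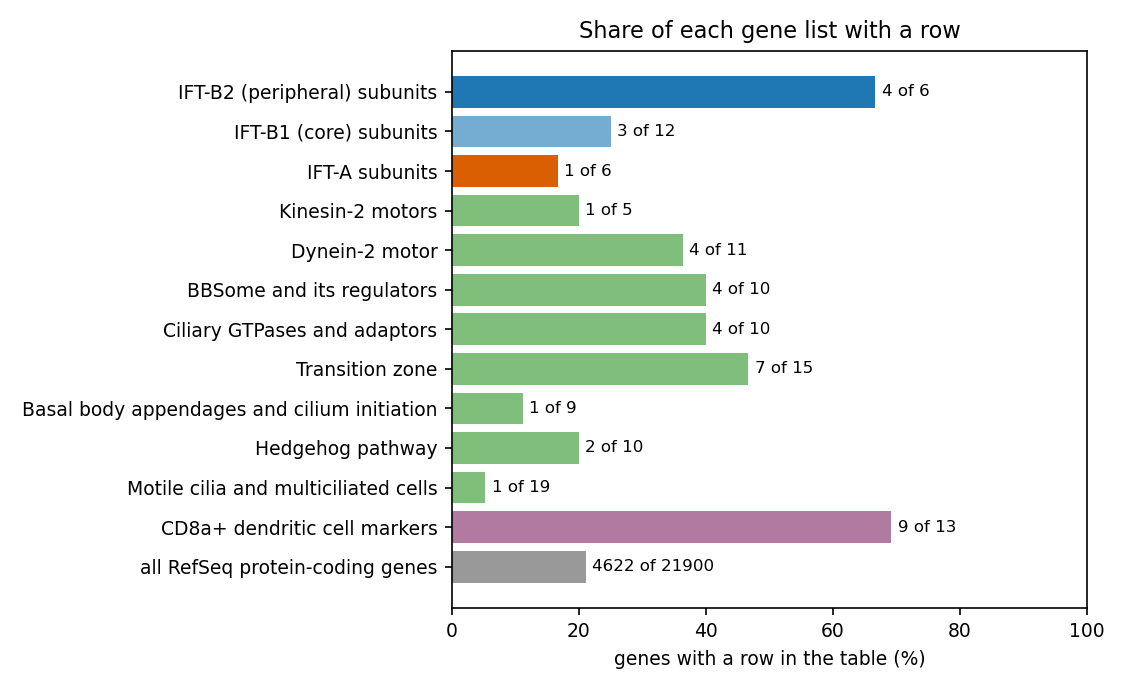
Percentage of each gene list with a row in the table (x axis), with the counts beside each bar. The IFT lists stand at the top, other cilium lists in green, CD8α+ dendritic cell markers in purple and all RefSeq protein-coding genes (21.1%) in grey. IFT-B2 has 4 of 6 genes listed, IFT-B1 3 of 12 and IFT-A 1 of 6.

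Several IFT genes lie head to head with another gene. In GENCODE M21, 4 of the 8 (50%) have a protein-coding gene on the opposite strand that starts within 1000 bases upstream, against 9.60% of the 4666 protein-coding genes of the table found in that annotation. The partner of Ift20 is Tnfaip1, a gene named for its induction by TNF, and the gap between the outermost annotated starts is 28 bases, chr11:78536333-78536360, or 103 bases from the interval of the Ift20 row. Printed on the plus strand, on which Ift20 is transcribed, that gap shows how close the pair lies.
Ift20 and Tnfaip1 gap: acttcccgtgtcgtagtccccgccccct
Ift122 is paired with the DNA repair gene Mbd4 at a gap of 98 bases, or 156 from the row interval, and Ift80 with the condensin gene Smc4 at 167 by either measure. Ift46 is paired with the coatomer gene Arcn1 at 62 bases from its outermost annotated start, but the interval of the Ift46 row begins 5163 bases away. Ift122, at 4.77 FPKM, thus stood beside Mbd4 at 6.72, and Tnfaip1, Smc4 and Arcn1 had no row.

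All 8 rows carried accessions of 1 gene each, 9 in all, and no row interval overlapped another protein-coding gene. The loci of Ift57, Ift80 and Ift88 hold genes on the opposite strand that are not annotated as protein-coding. They are Gm15518 for Ift57, Gm20690 for Ift80, and Ift88os and Gm15836 for Ift88. The Ift80 locus also holds Gm20689, Gm18588, Gm20691 and Gm48183 on its own strand. Overlap was judged by whole gene intervals, and shared exons were not checked. No source used here says whether fragments were counted by strand. Whether reads from a stretch shared with the opposite-strand genes were kept apart from those of the 3 IFT genes is therefore unknown. Reads from a stretch shared with the genes on the strand of Ift80 cannot be told apart by strand.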

How the data were processed

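Poly(A) RNA of 2 libraries of pIC-activated DC1940 cells (1 group) was sequenced, per the labels' protocols. Per the submitters' processing notes, the tools were TopHat2 2.1.0, Cufflinks 2.2.1 and FastQC 0.11.5, with the build mm10. The deposited FPKM values were computed by the authors, 1 per gene, per the file headers, and no source used here says how both libraries were combined. The value column used was that of the pIC group. As depth is unknown, intervals and limits of detection are not stated.

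IFT rows were selected by symbol. There were 12 lists with 126 genes in all. Members and lists were chosen with earlier results of these data known. All IFT rows are named, and of each other list at most 3 rows with the highest FPKM. Unlisted genes, Arl13b, Dynlt1b, Flt3 and neighbours were named besides, after the values were seen. No test over samples was possible. Levels were compared as FPKM or log2(FPKM + 1). Row starts had 1 added. Accessions were matched to RefSeq (GRCm38.p6) and to GENCODE M21, both on the mm10 assembly. The motif search was tested on simulated sequences, and some of its matches are not reported here. Python 3.11.15, pandas 2.3.3, numpy 2.4.6 and matplotlib 3.10.9 were used.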

Additional observations from a re-analysis of the deposited data

How the results depend on the processing

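The count of 8 IFT rows was the same for all subunits whatever their symbol, for rows at 1 FPKM or more, for rows of 1 gene without an overlapping coding gene, and for matching by accession, the last chosen after seeing the data. The first 3 of these settings keep the same 8 rows, so the median of 3.78 FPKM could not change under them. It was 2.32 FPKM without Ift20 and Ift27, a setting also chosen after seeing the data. That setting leaves out the 2 highest values by construction. The difference between IFT-B and IFT-A of -0.61 was -0.75 with a pseudocount of 0.1 and -0.37 with means over subunits in place of medians. A floor of 1 FPKM and the use of all subunits keep the same rows, so the difference could not change there. It rests on Ift122 as the single IFT-A gene. Leaving out a library was not run, since the table gives no value per library. No paired analysis was possible because the 2 libraries form a single group and share each value. The limits that depth sets are unknown, as the files give no depth.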

Other observations

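The order of the table's rows is not explained in the sources used here. Locus numbers climb without a break over rows 1 to 2406 (49.1% of the table). Of the 8 IFT rows, 1 stood in that first stretch, Ift46 at row 2217, and 7 came after it. Their rows were 2453 for Ift57, 2796 for Ift27, 2998 for Ift88, 3696 for Ift122, 3856 for Ift172, 4098 for Ift20 and 4378 for Ift80. Ift20, the highest IFT gene by FPKM, and Ift80, among the lowest, thus both came after the other IFT rows. These positions were looked at after the table had been seen and carry no test.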
